A study of Mus musculus with 16 samples.

Results

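The genes described are 10 ionotropic and metabotropic glutamate receptor genes, taken by symbol from the 48795 genes of a gene count table, and all 10 were found in it. They are the AMPA receptor genes Gria1, Gria2, Gria3 and Gria4, the kainate receptor genes Grik1, Grik2 and Grik5, the NMDA receptor gene Grin1, and the metabotropic receptor genes Grm7 and Grm8. The RNA came from L4 to L6 dorsal root ganglia of mice, which hold the cell bodies of the sensory neurons whose axons run in the sciatic nerve. The ganglia were dissociated, and the sample descriptions name Percoll, a density medium. The sciatic nerve was crushed on 1 side, and each mouse gave both kinds of ganglion, injured and naive, 24 h or 72 h later, with 4 mice at each time.

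The 16 libraries fall into naive 24 h, injured 24 h, naive 72 h and injured 72 h, with 4 libraries each. Both the injured and the naive ganglia therefore came from animals that carried a crushed nerve, and ganglia from uninjured animals are not among the groups. Strain, genotype, sex and age are not given in the sources used here. The libraries held 32758978 to 43229939 counts in the injured and 41241516 to 56484541 in the naive group at 24 h, and 38530738 to 49717456 and 38358039 to 54980782 at 72 h. The injured libraries at 24 h were thus mostly the shallower ones, and each of the 10 genes had at least 228 counts in every library. Replicates are mice, so p-values measure the spread between animals, and since each animal gave both kinds of ganglion, injured and naive libraries are not independent of each other.

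Glutamate is the main fast transmitter of primary sensory neurons, which release it in the spinal cord and also carry receptors for it on their own terminals and cell bodies. AMPA, kainate and NMDA receptors are ion channels built from 4 subunits, and the subunits present set the conductance, calcium entry and kinetics of the channel. Group III metabotropic receptors, to which Grm7 and Grm8 belong, couple to inhibitory G proteins and act on nerve endings to lower transmitter release.

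AMPA and kainate subunits share a loop that lines the pore, in which a single glutamine codon is a known point of control. In the RNA of Gria2, Grik1 and Grik2 the adenosine of this codon can be edited to inosine, mainly by the enzyme encoded by Adarb1, and the edited codon is read as arginine, which in Gria2 makes channels almost impermeable to calcium. The coding sequences around this codon are shown because Gria2, Grik1, Grik2 and Adarb1 all changed after the crush, as described further on. They were read from the GENCODE M21 transcripts (GRCm38), 30 bases each, 5′ to 3′ on the strand of the gene, with the glutamine codon in capitals.
Gria1: ggggccttcatgCAGcaaggatgtgacatt
Gria2: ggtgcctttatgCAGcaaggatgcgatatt
Gria3: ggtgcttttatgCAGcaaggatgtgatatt
Gria4: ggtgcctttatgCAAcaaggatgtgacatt
Grik1: ggagctctcatgCAGcaaggatcggagctg
Grik2: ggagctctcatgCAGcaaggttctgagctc
Grik5: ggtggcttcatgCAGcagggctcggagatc
The codon was CAG in 6 of the 7 genes and CAA in Gria4. Gria2 and Gria3 shared 28 of the 30 bases and Grik1 and Grik2 shared 27, while Gria2 and Grik2 shared 20. The sites lie at chr11:57243082-57243111 (plus strand) in Gria1, chr3:80706896-80706925 (minus) in Gria2, chrX:41610253-41610282 (plus) in Gria3, chr9:4464122-4464151 (minus) in Gria4 and chr7:25022482-25022511 (minus) in Grik5. In Grik1 (chr16:87936105-87940556, minus) and Grik2 (chr10:49240786-49244343, minus) the 30 coding bases are split by an intron, so that the interval is longer than the sequence. The counts per gene do not tell edited from unedited RNA.

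Falls after the crush outnumbered rises among the 10 genes at both times. These genes were chosen with earlier results of these data known, so their counts beside those of all genes are a description only. At 24 h, Gria1, Gria2, Gria4, Grik1 and Grm7 fell and none of the 10 rose, where 8.31% of all 19151 genes tested fell and 10.7% rose. At 72 h, these 5 genes were again lower, Gria3 and Grin1 had fallen as well, and the kainate subunit gene Grik2 rose, against 13.5% of all genes that fell and 14.4% that rose. Grik5 and Grm8 did not pass the test at either time. The counts of 5 and 7 falls were not tested against each other: the count at 72 h was 4 without naive 72 h replicate 2, and Grin1 alone had a response that was called lower at 72 h than at 24 h. Calls are from edgeR's quasi-likelihood test with a Benjamini-Hochberg adjusted p under 0.05 over all genes tested, and all 10 genes passed its filter on low counts.

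The median log2 fold change of the 10 genes was −0.21 at 24 h and −0.35 at 72 h, where that of all genes tested was −0.01 at both times. It was −0.23 and −0.44 for 19 markers of sensory neuron subtypes, and −0.01 and −0.13 for 20 pan-neuronal genes. The injured libraries all lay below the naive ones for 5 of the 10 genes at 24 h, where this held for 8.48% of all genes, and for 5 at 72 h, where it held for 15%. For Grik2 at 72 h they all lay above, as for 16.3% of all genes. These are levels of RNA in preparations of dissociated ganglia with several cell types, in which fewer cells of a type and less RNA per cell cannot be told apart.

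**Figure D1:**
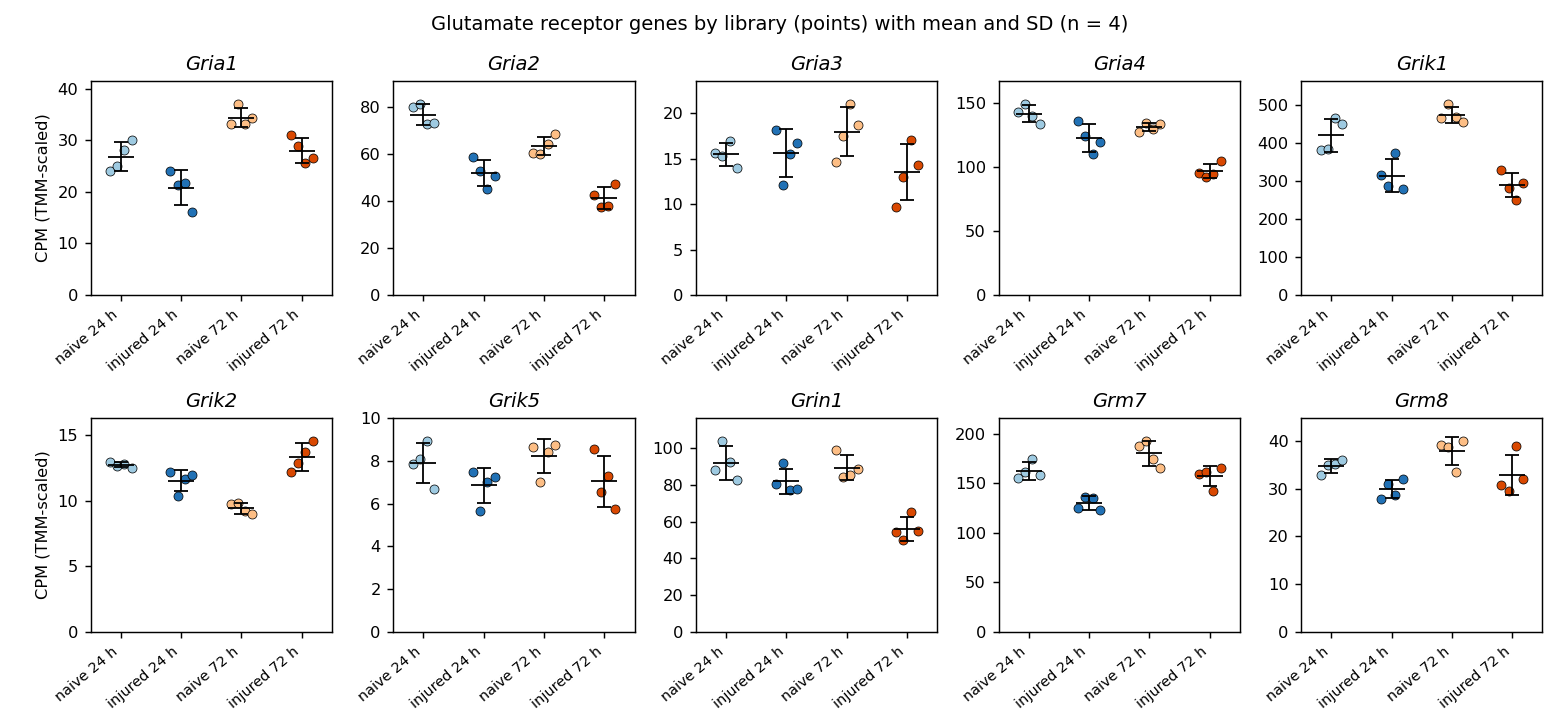
Level in CPM (vertical axes, from 0, scaled by TMM library sizes) of the 10 genes in each library (points), with the mean and SD of the 4 libraries of each group. Gria2 and Grik1 lie lower in injured than in naive libraries at both times without overlap, Grin1 separates at 72 h only, and Grik2 is highest in the injured libraries and lowest in the naive libraries at 72 h.

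Values below are CPM, that is, counts per 1000000 counts of a library scaled by edgeR's TMM method, listed for replicates 1 to 4 of a group, followed by log2 fold changes of injured over naive with their standard error. Among the AMPA receptor genes, Gria2 (chr3:80681450-80802835, minus strand), which encodes the subunit that limits calcium entry, had the largest falls. In naive ganglia at 24 h its level was 79.96, 81.1, 72.5 and 72.8 CPM. In injured ganglia at 24 h it was 58.8, 52.8, 45.2 and 50.4 CPM. Every injured library was below every naive one, and Gria2 fell by 32.4%, a log2 change of −0.56 ± 0.08 (SE, n = 4 against 4; edgeR adjusted p = 1.76e-05).

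At 72 h, Gria2 was at 60.4, 59.98, 64.1 and 68.2 CPM in naive and at 42.4, 37.5, 37.6 and 47.1 CPM in injured ganglia. The groups again did not overlap, and the log2 change was −0.62 ± 0.08 (edgeR adjusted p = 2.95e-06). The size of the fall did not differ detectably between the times: the response at 72 h minus that at 24 h was −0.05 on the log2 scale, with a 95% interval of −0.28 to 0.17.

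Gria4 (chr9:4417896-4796234, minus), a subunit with fast channel kinetics, had the highest level of the AMPA genes in CPM. It measured 143, 149, 140.0 and 133 CPM in naive and 136, 124, 110.4 and 119 CPM in injured ganglia at 24 h. One injured library (replicate 1) lay within the naive range, and Gria4 fell by 13.4%, a log2 change of −0.21 ± 0.06 (edgeR adjusted p = 0.0147). This call at 24 h was lost without injured replicate 3 (adjusted p = 0.0662), without naive replicate 2 (0.0563), and when libraries were scaled by pan-neuronal genes (0.0898).

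At 72 h, Gria4 was at 127, 134.5, 129 and 133 CPM in naive and at 95.2, 92.1, 94.6 and 104 CPM in injured ganglia. The groups were well apart, and Gria4 fell by 26.3%, a log2 change of −0.44 ± 0.06 (edgeR adjusted p = 3.45e-06). The response at 72 h minus that at 24 h was −0.23 ± 0.08 (adjusted p = 0.113), and it passed the test when the replicate number was taken as the animal (adjusted p = 0.0493) but not otherwise in the full set of libraries.

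Gria1 (chr11:57011387-57330244, plus), which encodes the subunit best known for activity-dependent trafficking in the brain, was at 23.98, 25.01, 28.1 and 30.1 CPM in naive and 24.1, 21.2, 21.7 and 16.1 CPM in injured ganglia at 24 h. Only the edges of the groups overlapped, and the log2 change was −0.37 ± 0.10 (edgeR adjusted p = 0.0147). It measured 33.1, 37.01, 33.1 and 34.3 CPM in naive and 30.9, 28.8, 25.6 and 26.5 CPM in injured ganglia at 72 h. These groups did not overlap, and the log2 change was −0.30 ± 0.10 (edgeR adjusted p = 0.0321). Both calls for Gria1 rested on single libraries: at 24 h the call was lost without injured replicate 4 (0.064) or naive replicate 4 (0.0584) and with the pan-neuronal scale (0.0563), and at 72 h without injured replicate 3 (0.1) or 4 (0.0819) or naive replicate 2 (0.0994) or 4 (0.0534).

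Gria3 (chrX:41400854-41678601, plus) had the lowest level of the 4 AMPA genes. At 24 h it was at 15.7, 15.3, 16.98 and 13.9 CPM in naive and 18.2, 12.1, 15.5 and 16.8 CPM in injured ganglia, with a log2 change of 0.01 and a 95% interval of −0.27 to 0.30. Its levels at 72 h were 14.6, 17.5, 21.01 and 18.8 CPM in naive and 9.68, 13.02, 17.04 and 14.3 CPM in injured ganglia. Gria3 was called lower at 72 h although the groups overlapped, with a log2 change of −0.41 ± 0.14 (edgeR adjusted p = 0.0371). This call was lost when any 1 of 5 libraries of the 72 h groups was left out, with adjusted p of 0.148 and 0.0844 without injured replicates 1 and 2 and of 0.0581, 0.136 and 0.0757 without naive replicates 2, 3 and 4.

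Among the kainate receptor genes, Grik1 fell at both times, Grik2 rose at 72 h only and Grik5 was not called. Grik1 (chr16:87895900-88290265, minus), which encodes the GluK1 subunit long known as the main kainate receptor subunit of small sensory neurons, was the most abundant of the 10 genes. Its level was 379.8, 384, 464 and 449 CPM in naive and 316, 285, 372.5 and 277 CPM in injured ganglia at 24 h. No injured library reached the lowest naive one, and Grik1 fell by 25.4%, a log2 change of −0.42 ± 0.09 (edgeR adjusted p = 9.65e-04).

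At 72 h, Grik1 was at 465, 502, 467 and 454.5 CPM in naive and 327, 282, 251 and 295 CPM in injured ganglia. All injured libraries were below all naive ones, and Grik1 fell by 38.8%, a log2 change of −0.71 ± 0.09 (edgeR adjusted p = 9.04e-07), which was the smallest p among the 10 genes at that time. The response at 72 h minus that at 24 h was −0.29 ± 0.12 and did not pass the test (adjusted p = 0.2).

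Grik2 (chr10:49094833-49788766, minus), which encodes the GluK2 subunit, went the other way at 72 h but not at 24 h. At 24 h it was at 12.96, 12.7, 12.8 and 12.5 CPM in naive and 12.2, 10.3, 11.7 and 11.9 CPM in injured ganglia. The injured libraries lay just below the naive ones, but the log2 change of −0.14 ± 0.09 did not pass the test (edgeR adjusted p = 0.331). The 72 h levels of Grik2 were 9.72, 9.83, 9.18 and 8.96 CPM in naive and 12.2, 12.8, 13.7 and 14.6 CPM in injured ganglia. Here every injured library was above every naive one, with a rise of 41.5%, a log2 change of 0.50 ± 0.09 (edgeR adjusted p = 2.07e-04).

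The response of Grik2 differed between the times by 0.64 ± 0.13 on the log2 scale (edgeR adjusted p = 0.00353), where 2.86% of all genes had a response that was higher at 72 h. The naive libraries carried the larger part of this difference. The injured libraries at 72 h (12.2 to 14.6 CPM) overlapped the naive ones at 24 h (12.5 to 13.0 CPM). In naive ganglia Grik2 had a mean of 12.7 CPM at 24 h and of 9.42 CPM at 72 h, a log2 difference of −0.43 ± 0.09 (edgeR adjusted p = 0.0149), while the injured mean went from 11.5 CPM to 13.3 CPM. Of the 10 genes, Grik2 alone was called between the naive groups, in which 0.731% of all genes were called lower and 1.61% higher at 72 h. Without passing the test, naive Gria2 was also lower at 72 h without overlap (log2 difference −0.28, adjusted p = 0.0669), as for 4.84% of all genes, and naive Gria1 was higher without overlap (0.36, adjusted p = 0.0618), as for 5.67%. That naive call was lost without naive 72 h replicate 3 (0.0541) and with the pan-neuronal scale (0.0798), whereas the rise at 72 h and the difference between the times held in every alternative tried.

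Grik5 (chr7:25009849-25072346, minus) encodes GluK5, a subunit with high affinity for kainate that forms channels only together with subunits such as GluK1 or GluK2. Its 16 libraries lay between 5.66 and 8.96 CPM, and the groups overlapped at both times. The log2 change was −0.20 (95% interval −0.48 to 0.07) at 24 h and −0.22 (−0.50 to 0.05) at 72 h, so that falls of the size seen in Gria4 at 72 h lie within both intervals.

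Grin1 (chr2:25291181-25319187, minus) encodes the subunit that every NMDA receptor needs and that binds the co-agonist glycine. At 24 h it was at 87.96, 104, 92.6 and 82.7 CPM in naive and 80.6, 92.01, 77.2 and 77.7 CPM in injured ganglia. The groups overlapped, and the log2 change of −0.17 ± 0.08 did not pass the test (edgeR adjusted p = 0.182). At 72 h it was at 99.00, 84.4, 85.4 and 88.6 CPM in naive and 54.2, 49.8, 65.2 and 54.6 CPM in injured ganglia. The highest injured library was well below the lowest naive one, and Grin1 fell by 37.4%, a log2 change of −0.68 ± 0.08 (edgeR adjusted p = 9.83e-07).

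The response of Grin1 at 72 h minus that at 24 h was −0.51 ± 0.12 on the log2 scale (edgeR adjusted p = 0.0087), where 3.44% of all genes had a response that was lower at 72 h. Its naive means were 91.8 CPM at 24 h and 89.3 CPM at 72 h, so the change between the times lay in the injured libraries, whose means were 81.9 and 56.0 CPM. Grin1 shares 1307 bases, or 13.5% of its exon bases, with the antisense gene Grin1os, and the sources used here do not say whether counting used strand. Grin1os had at most 16 counts in any library, against at least 2091 for Grin1.

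**Figure D2:**
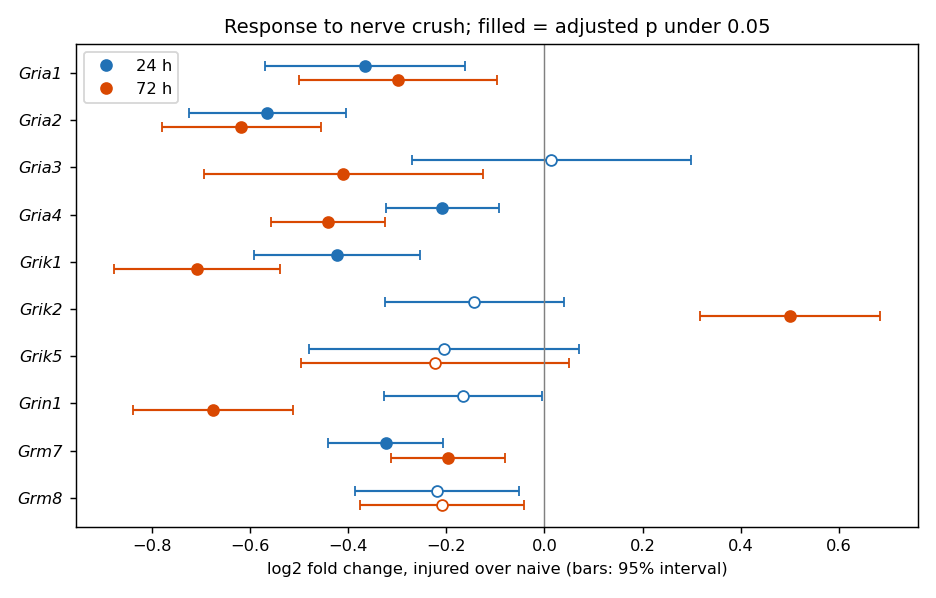
Log2 fold change of injured over naive ganglia (horizontal axis) for the 10 genes at 24 h and 72 h, with 95% intervals from the edgeR fit; filled points have an adjusted p under 0.05. The intervals of the 2 times lie apart for Grik2 (−0.14 and 0.50) and Grin1 (−0.17 and −0.68), and lie almost on each other for Gria1, Gria2, Grik5 and Grm8.

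Of the group III metabotropic receptor genes among the 10, Grm7 fell at both times and Grm8 was not called. Grm7 (chr6:110645581-111567230, plus), which encodes a release-limiting receptor of low glutamate affinity, was at 155, 161, 175 and 158 CPM in naive and 125, 136, 135 and 123 CPM in injured ganglia at 24 h. The injured libraries were all below the naive ones, and Grm7 fell by 20.1% (log2 change −0.32 ± 0.06, edgeR adjusted p = 3.37e-04). At 72 h it was at 188, 193, 174 and 165 CPM in naive and 159, 161, 142 and 165 CPM in injured ganglia. The groups touched at 72 h, and the log2 change was −0.20 ± 0.06 (edgeR adjusted p = 0.0149). The call at 72 h was lost without injured replicate 3 (0.0768) or naive replicate 1 (0.0527) or 2 (0.0693), and the response did not differ detectably between the times (difference 0.13, 95% interval −0.04 to 0.29).

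Grm8 (chr6:27275119-28135178, minus), which encodes a related receptor of higher glutamate affinity, was at 32.7, 34.9, 35.2 and 36.1 CPM in naive and 27.8, 30.9, 28.7 and 31.9 CPM in injured ganglia at 24 h. The injured libraries were all below the naive ones, yet the log2 change of −0.22 ± 0.09 missed the threshold (edgeR adjusted p = 0.0791). The later libraries held 39.2, 38.7, 33.5 and 40.02 CPM in naive and 30.8, 29.6, 38.95 and 31.9 CPM in injured ganglia. Injured replicate 3 stood within the naive range, and the log2 change was −0.21 ± 0.08 (adjusted p = 0.0727). Without that library Grm8 passed the test at 72 h (log2 change −0.30, adjusted p = 0.00761) and at 24 h (adjusted p = 0.0465). At 72 h Grm8 also passed without naive replicate 3 (0.0334) and with the pan-neuronal scale (0.0036). With that scale, the median log2 change of all genes tested was itself −0.12 at 72 h.

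Levels of the genes were compared per kilobase of annotated exon. In naive ganglia at 24 h, Grik1 was highest at 62.4 ± 6.5 CPM per kb (SD, n = 4), followed by Grm7 at 27.6 ± 1.5, Gria4 at 22.4 ± 1.0 and Grin1 at 9.46 ± 0.93 CPM per kb. These 4 were apart from each other and from the rest. Gria2 at 4.93 ± 0.29 and Gria1 at 4.43 ± 0.46 CPM per kb overlapped, Grm8 followed at 3.51 ± 0.14, and Gria3 at 1.57 ± 0.13 and Grik5 at 1.53 ± 0.18 CPM per kb overlapped. Grik2 was lowest at 0.962 ± 0.014 CPM per kb.

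The upper and lower ends of this order were the same in all 4 groups. At 72 h in injured ganglia, Grik1 (43.0 ± 4.7 CPM per kb), Grm7 (26.7 ± 1.7), Gria4 (15.3 ± 0.8) and Grin1 (5.77 ± 0.67) were again the first 4. Gria2, the fifth gene in naive ganglia at 24 h, was seventh at 2.65 ± 0.29 CPM per kb, below Gria1 (4.63 ± 0.40) without overlap and next to Grm8 (3.31 ± 0.43), with which it overlapped. In naive ganglia at 72 h, Gria2 (4.06 ± 0.25 CPM per kb) was already below Gria1 (5.69 ± 0.31) without overlap, so that this step was also present between the naive groups. Grik2 was still lowest, at 1.01 ± 0.08 CPM per kb. With the length of the longest annotated transcript in place of all exons, 7 or 8 of the 10 genes kept their rank in each group. For Gria2 this length is 10371 bases in place of 15548, and for Gria1 5546 in place of 6043. The gap between Gria2 and Gria1, and in some groups whether their libraries overlap, therefore depend on the length used. In injured ganglia at 24 h, Gria1 (3.44 ± 0.56 CPM per kb of all exons) and Gria2 (3.33 ± 0.36) overlapped.

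**Figure D3:**
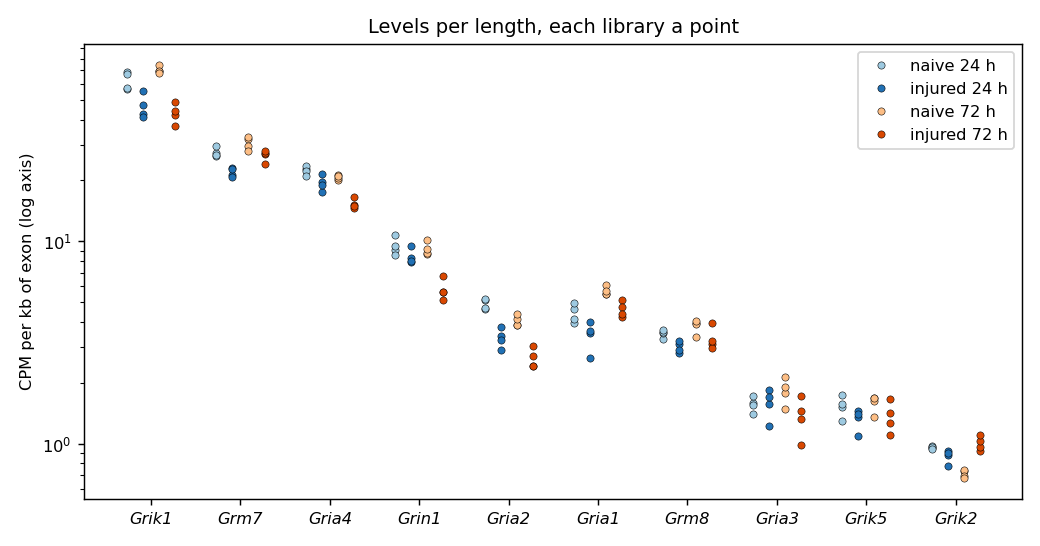
Level of each gene per kilobase of annotated exon (vertical axis, CPM per kb, log scale), with 1 point per library and colours for the 4 groups, ordered by the naive level at 24 h. Grik1 is highest and Grik2 lowest in all 4 groups. Gria2 lies below Gria1 without overlap in both groups at 72 h, and the genes overlap in both groups at 24 h.

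The make-up of the AMPA genes and of the kainate genes among the 10 was described as shares of the summed level per kilobase. This measure does not depend on library scaling and was added after the single genes had been seen. Gria2 made up 14.8 ± 0.6% (SD, n = 4) of the 4 AMPA genes in naive ganglia at 24 h and 12.0 ± 0.4% in injured ones, without overlap between libraries (14.02 to 15.4% against 11.4 to 12.2%). At 72 h the share of Gria2 was 12.6 ± 0.7% in naive and 11.03 ± 0.76% in injured ganglia, and the libraries overlapped (11.7 to 13.3% against 10.3 to 11.9%). Gria4 made up most of the AMPA family throughout, at 67.2 ± 1.3% and 69.9 ± 1.3% in naive and injured ganglia at 24 h and 64.2 ± 0.7% and 63.9 ± 0.9% at 72 h.

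Within Grik1, Grik2 and Grik5, the share of Grik2 was small and differed most at 72 h. Grik3 and Grik4 (1.29 and 8 CPM per kb in naive ganglia at 24 h) are not in this sum. Grik1 made up most of the sum, so its fall also raises the share of Grik2. The share of Grik2 was 1.49 ± 0.16% in naive and 1.81 ± 0.23% in injured ganglia at 24 h, with overlap. At 72 h it was 0.981 ± 0.029% in naive and 2.24 ± 0.34% in injured ganglia, with ranges of 0.966 to 1.02% and 1.80 to 2.60%.

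**Figure D4:**
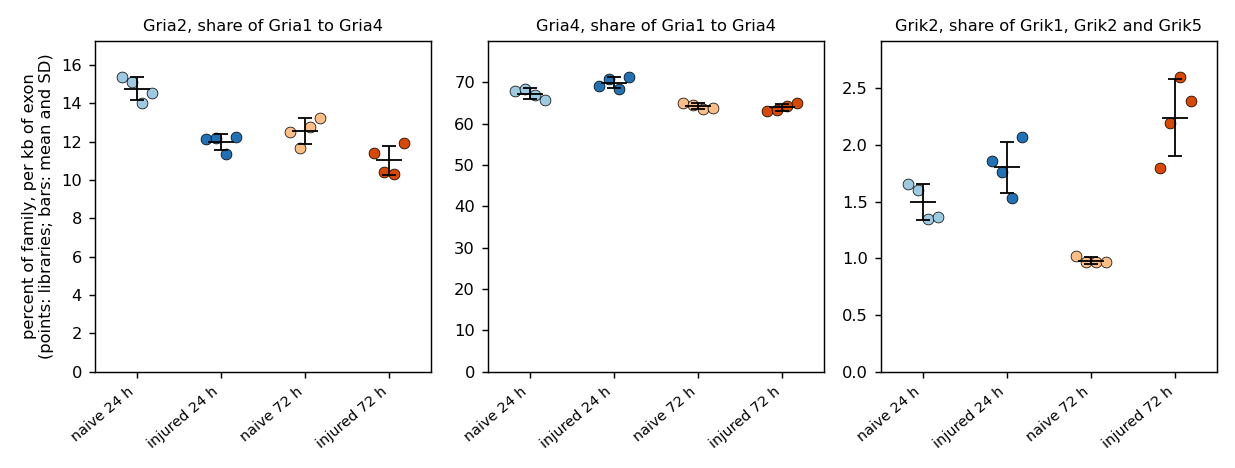
Share of Gria2 and Gria4 in the summed level of Gria1 to Gria4, and of Grik2 in that of Grik1, Grik2 and Grik5 (vertical axes, percent, levels per kilobase of exon), with 1 point per library and the mean and SD of each group. The share of Gria2 is lower in the injured libraries at 24 h (12.0% against 14.8%), and that of Grik2 is higher in the injured libraries at 72 h (2.24% against 0.981%).

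The genes whose log2 CPM was most like that of Gria2 over the 16 libraries were Gprasp2 (Pearson r = 0.967), Pex5l (0.961), Plcd4 (0.96), Nkrf (0.955) and Suds3 (0.953). Those most like Grik1 were Tmem233 (0.974), Scn2b (0.971), Mal2 (0.97), Lpar3 (0.969) and Mrgprx3-ps (0.969). Gria2 and Grik1 were taken for having the smallest p of the 10 genes at 24 h and at 72 h. The 16 points share the differences between the 4 groups, so these values are descriptions only.

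Of the glutamate receptor genes outside the 10, 13 of 16 passed the filter on low counts. Of these, 4 fell and 2 rose at 24 h and 3 fell and 1 rose at 72 h, with a median log2 change of −0.23 and −0.40. Of all genes tested, 8.31% fell and 10.7% rose at 24 h, and 13.5% fell and 14.4% rose at 72 h. Grm4, another group III metabotropic receptor gene, fell at both times, by 0.47 ± 0.12 and by 0.73 ± 0.12 on the log2 scale (edgeR adjusted p = 0.00588 and 3.43e-05). Grin3a, an NMDA receptor subunit that lowers calcium entry, fell by 0.40 ± 0.10 and 0.42 ± 0.10 (adjusted p = 0.00363 and 0.00138). Grik4, the high-affinity kainate subunit closest to Grik5, fell by 0.23 ± 0.07 and 0.40 ± 0.07 (adjusted p = 0.0211 and 9.04e-05); its call at 24 h was lost without naive replicate 3 (0.0719) or 4 (0.0662), with the pan-neuronal scale (0.0584) and with only the 8 libraries compared (0.0528).

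Grid1, which encodes a delta receptor, rose at 24 h (log2 change 0.32 ± 0.09, edgeR adjusted p = 0.0133, but 0.0689 without a filter on low counts and 0.0512 with only the 8 libraries compared) and was not called at 72 h (0.05, adjusted p = 0.761). The metabotropic gene Grm5 fell at 24 h (log2 change −0.90 ± 0.28, adjusted p = 0.0243), from a mean of 3.02 to 1.62 CPM, and was not called at 72 h (−0.56, adjusted p = 0.136). Grik3, Grin2a, Grin2c, Grin2d, Grin3b and Grm3 were not called at either time. Of these, Grin2a, Grin2c, Grin2d and Grin3b had group means under 0.6 CPM. Grin2b, Grm2 and Grm6 were not tested, with 19, 5 and 6 counts over all libraries, so that of the NMDA receptor partners of Grin1 only Grin3a was well covered.

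Among 27 genes for auxiliary subunits and extracellular partners of these receptors, 25 were tested, of which 3 fell and 3 rose at 24 h and 4 fell and 4 rose at 72 h. The 2 not tested were Shisa8 and C1ql2. Over all genes tested, the shares were 8.31% falls and 10.7% rises at 24 h, and 13.5% falls and 14.4% rises at 72 h. Of the Neto genes, which encode the auxiliary subunits of kainate receptors, Neto2 rose at both times and Neto1 at 72 h. Neto2 was at 34.2, 33.7, 30.1 and 31.2 CPM in naive and 52.5, 57.9, 56.5 and 50.5 CPM in injured ganglia at 24 h, and at 36.7, 39.3, 32.3 and 37.9 and 60.9, 62.9, 58.9 and 58.4 CPM at 72 h. It stood apart between the groups at both times, with log2 changes of 0.75 ± 0.07 and 0.72 ± 0.07 (edgeR adjusted p = 3.7e-08 and 3.28e-08).

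Neto1 was at 3.23, 4.31, 5.23 and 3.63 CPM in naive and 5.81, 6.02, 3.79 and 5.63 CPM in injured ganglia at 24 h, where the groups overlapped (log2 change 0.38 ± 0.17, edgeR adjusted p = 0.139); without injured replicate 3 it passed the test (0.0429). At 72 h it was at 4.36, 3.16, 3.99 and 3.21 CPM in naive and 14.5, 15.4, 13.2 and 11.6 CPM in injured ganglia. All injured libraries at 72 h were far above all naive ones, with a log2 change of 1.90 ± 0.17 (adjusted p = 9.51e-09), and the response differed between the times by 1.52 ± 0.24 (adjusted p = 3.23e-04). Neto1 and Grik2 were thus both higher at 72 h with a difference between the times, while Grik1 was lower. The difference between the times lay in different groups for the former genes. Neto1 had means of 4.10 and 3.68 CPM in naive and of 5.31 and 13.7 CPM in injured ganglia, at 24 h and 72 h. For Grik2 the larger part lay in the naive libraries, as given above.

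Of the AMPA receptor partners, Frrs1l, which encodes a protein needed for AMPA receptor assembly, was not called at 24 h (log2 change −0.14, edgeR adjusted p = 0.23) and fell at 72 h by 0.81 ± 0.08 (adjusted p = 2.76e-08). Nptx2, a secreted pentraxin that clusters AMPA receptors, rose at 24 h (0.35 ± 0.06, adjusted p = 3.86e-04) and was not called at 72 h (0.09, adjusted p = 0.337). Shisa9, an AMPA receptor auxiliary subunit, rose at both times (adjusted p = 0.00839 and 0.00117) from very low counts: 22, 0, 3 and 0 in naive and 25, 58, 24 and 39 in injured libraries at 24 h, and 5, 9, 5 and 17 against 44, 104, 60 and 107 at 72 h. Cacng2, named here after its values were seen, encodes stargazin, the first known AMPA receptor auxiliary subunit, and fell at 72 h by 0.71 ± 0.11 (adjusted p = 1.28e-05), with −0.09 at 24 h (adjusted p = 0.628).

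Among 20 scaffold and trafficking genes, 1 rose and 1 fell at 24 h and 1 rose and 4 fell at 72 h. The shares over all genes tested were 10.7% rises and 8.31% falls at 24 h, and 14.4% and 13.5% at 72 h. Dlg4, which encodes the postsynaptic scaffold PSD-95, was not called at 24 h (log2 change −0.09, edgeR adjusted p = 0.399) and fell at 72 h by 0.54 ± 0.07 (adjusted p = 2.03e-06). Dlg2, its relative, rose at both times, by 0.46 ± 0.07 and 0.52 ± 0.07 on the log2 scale (adjusted p = 3.03e-05 and 2.71e-06). Homer2, a scaffold of group I metabotropic receptors, fell by 0.28 ± 0.07 at 24 h (adjusted p = 0.00591) and had a change of 0.06 at 72 h (0.627). Dlgap3, a scaffold partner of Dlg4, had a change of −0.03 at 24 h (0.86) and fell by 0.37 ± 0.09 at 72 h (0.0021), and Shank2 was not called at either time (0.39 and −0.02, adjusted p = 0.17 and 0.966).

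Of 16 genes for glutamate supply and uptake, 6 rose and 1 fell at 24 h and 5 rose and 3 fell at 72 h. Over all genes tested, 10.7% rose and 8.31% fell at 24 h, and 14.4% rose and 13.5% fell at 72 h. Glul, the glutamine synthetase gene typical of satellite glia, rose by 0.46 ± 0.05 and 0.75 ± 0.05 on the log2 scale (edgeR adjusted p = 3.96e-07 and 7.44e-11). Slc38a1, a glutamine transporter gene, rose by 0.92 ± 0.08 and 0.69 ± 0.08 (adjusted p = 8.68e-09 and 3.59e-07). Slc38a2, of the same transporter family, rose at 24 h by 0.37 ± 0.06 (1.6e-04) with 0.03 at 72 h (0.764), and Got2, the mitochondrial aspartate aminotransferase gene, rose at 72 h by 0.26 ± 0.06 (9.64e-04, but 0.081 with the pan-neuronal scale) with 0.07 at 24 h (0.409).

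Adarb1, whose enzyme edits the pore codon shown above, was the only one of 3 editing enzyme genes that was called. It was at 65.8, 66.01, 64.8 and 59.00 CPM in naive and 76.2, 97.5, 81.7 and 90.8 CPM in injured ganglia at 24 h, and at 58.3, 59.6, 56.1 and 56.3 and 108, 109, 111 and 113.5 CPM at 72 h. The groups were apart at both times, with log2 changes of 0.44 ± 0.07 and 0.94 ± 0.07 (edgeR adjusted p = 2.46e-05 and 1.04e-10), and the rise was larger at 72 h by 0.50 ± 0.09 (adjusted p = 0.00138). Of the genes whose RNA this enzyme edits, Gria2 and Grik1 were lower in the injured ganglia at both times, while Grik2 was not called at 24 h and was higher at 72 h. Adar (0.04 and −0.15, adjusted p = 0.78 and 0.0985) and Adarb2 (−0.73 and −0.67, adjusted p = 0.228 and 0.234) were not called, and Adar was lower at 72 h with the replicate number as animal (0.0406), with the pan-neuronal scale (0.00237) and with only the 8 libraries compared (0.0366).

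Over all 5 lists, 77 of 82 genes were tested, of which 13 rose and 9 fell at 24 h and 12 rose and 14 fell at 72 h, with median log2 changes of −0.02 at each time. For all genes tested, the shares were 10.7% and 8.31% at 24 h and 14.4% and 13.5% at 72 h. Rises and falls were called among the receptor genes as well as among the lists outside the receptors. The medians of the lists outside the receptors (−0.08 to 0.09 at 24 h, −0.15 to 0.05 at 72 h) lay nearer to 0 than those of the receptor genes.

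**Figure D5:**
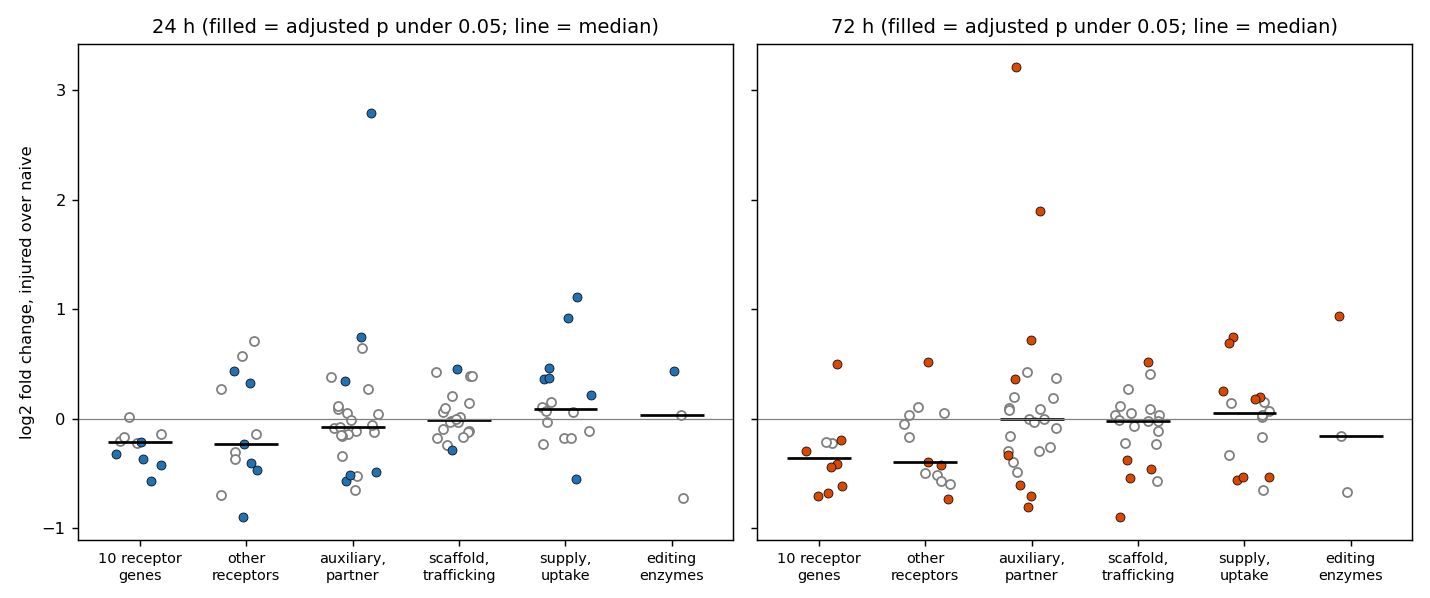
Log2 fold change of injured over naive (vertical axis) for every tested gene of the 10 receptor genes and the 5 lists, at 24 h and 72 h; filled points have an adjusted p under 0.05 and lines are medians. The medians of the receptor genes lie below 0 (−0.21 and −0.35), while the highest points at 72 h are the auxiliary genes Shisa9 (3.22) and Neto1 (1.90).

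Markers of the cell types in the ganglion moved as well. The shares of all genes tested, for comparison, were 8.31% falls and 10.7% rises at 24 h, and 13.5% and 14.4% at 72 h. Of 19 markers of sensory neuron subtypes, 5 fell and 1 rose at 24 h and 15 fell and 1 rose at 72 h, and their summed level was 6048 to 6529 CPM in naive and 4851 to 5282 CPM in injured libraries at 72 h. Of 20 pan-neuronal genes, 5 fell and 4 rose at 24 h and 9 fell and 3 rose at 72 h. Their summed level at 72 h was 13120 to 14170 CPM in naive and 14380 to 15300 CPM in injured libraries. At 24 h it was 14310 to 15430 CPM in naive and 13300 to 15510 CPM in injured libraries. The mean of this sum was lowest in naive libraries at 72 h, at 13600 CPM. It was 14710 CPM in naive and 14780 CPM in injured libraries at 24 h, and 14710 CPM in injured ones at 72 h. Of 10 macrophage markers, none was called at 24 h and 7 rose at 72 h, from a summed 15.9 to 30.8 CPM to 55.2 to 69.6 CPM. Their summed level at 24 h was 15.1 to 28.2 CPM in naive and 17.4 to 25.9 CPM in injured libraries. The other lists, each of 10 markers, had fewer calls. At 24 h, 1 satellite glia, 2 myelinating Schwann cell and 1 endothelial, mural or fibroblast marker fell, and no neutrophil or red cell marker was called. At 72 h, 1 satellite glia and 1 myelinating Schwann cell marker rose, 5 neutrophil and red cell markers fell, and 2 endothelial, mural and fibroblast markers fell. Summed levels at 72 h overlapped between naive and injured libraries for satellite glia (1269 to 1435 and 1284 to 1359 CPM), Schwann cells (802 to 868 and 828 to 947 CPM), neutrophils and red cells (178 to 578 and 63.1 to 237 CPM) and the vascular and fibroblast list (329 to 375 and 298 to 357 CPM). Between the naive groups, 6 of the 10 endothelial, mural and fibroblast markers were called higher at 72 h, where 1.61% of all genes were. Their summed level in naive libraries was 237 to 323 CPM at 24 h and 329 to 375 CPM at 72 h. Of the sensory neuron subtype markers 2 were higher and 1 lower, of the neutrophil and red cell markers 1 was higher. Of the pan-neuronal genes 1 was lower, where 0.731% of all genes were, and the other lists had no call. No marker was at 0 in all libraries, and the part of these shifts in the receptor results was not tested.

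A second deposited table held counts of short windows, of which 216 lay inside the 10 genes. Only Gria1, Gria3 and Grm7 had 1000 or more counts in such windows, with 3738, 1959 and 4596 counts in all, of which 3700, 1837 and 4125 were in exon windows. The window with the most counts in each of these genes is shown, to place where the window signal lies (mm10, 24 bases, 5′ to 3′ on the strand of the gene).
Gria1: tgggatatcaatgaagaaatcaaa
Gria3: catcattgaaatctttttgctttg
Grm7: agatggtggaatctttggggaaac
These lie at chr11:57327953-57327976, chrX:41676544-41676567 and chr6:111566547-111566570, all on the plus strand and in the 3′ UTR by GENCODE M21 (the table itself puts the Gria3 window in the last exon of a non-coding transcript), with 2138, 908 and 3740 counts over the 16 libraries. Summed over the windows of each gene, the log2 ratio of injured over naive was −0.25 at 24 h and −0.30 at 72 h for Gria1, 0.33 and −0.24 for Gria3, and −0.47 and −0.30 for Grm7. The libraries of the groups overlapped in all 6 comparisons, and no test was made. The gene table gave log2 changes of the same sign in each of the 6, from the same genes in the same libraries. That of Gria3 at 24 h was 0.01, with a 95% interval of −0.27 to 0.30 that takes in both signs.

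Promoter entries from RefSeq (GRCm38.p6) were at hand for 7 of the 10 genes, with 10 start sites, and the 250 bases before each start were searched on both strands. The AP-1 motif TGANTCA was in 1 of the 10 windows, before the third start of Grm8, and in 6.75% of 32817 promoters. The CRE motif TGACGTCA (1.55% of all promoters) and the NRF-1 core CGCATGCG (1.54%) were in none of the 10. The GC box GGGCGG, in 32.7% of all promoters, lay before Grik5, Grm7 and the third start of Grm8, and CCAAT, in 33.8%, before Gria4 and Grm8. The windows before Gria2, Grik2 and Grin1 held none of the 5 motifs.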

How the data were processed

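RNA-seq libraries of 16 dissociated mouse dorsal root ganglion samples were analysed from 2 deposited tables of raw counts, per gene and per short window. The authors made the counts with bcl2fastq 2.17, STAR and HTSeq on GRCm38 (mm10), per the submitters' processing notes; the strand setting and how windows were counted are not given in the sources used here. Column names of the 72 h groups give no time; they were matched to the 72 h titles as the groups left over. Of 48795 gene IDs, 48349 had a symbol in GENCODE M21, which also gave coordinates, exon lengths and transcripts.

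Counts were filtered with edgeR's filterByExpr (minimum count 10, minimum total 15; 19151 genes left), scaled by TMM and fitted over the 16 libraries in a model of group alone by edgeR 4.0.16 (R 4.3.3); p-values were adjusted by Benjamini-Hochberg with a threshold of 0.05. Standard errors were derived from the log2 fold change and the F statistic, and 95% intervals are 1.96 SE each way. CPM are counts scaled to a TMM-corrected library size of 1000000. The scripts were tested on simulated data. No pair of libraries within a group agreed within sampling noise (24 pairs, chi-square per degree of freedom 9.24 to 43.5).

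The 10 genes and all gene lists were chosen with earlier results of these data known. All 10 are named; of each pathway list, the 3 genes with the smallest p in each injury comparison are named, the other glutamate receptor genes are accounted for except 2 that are not reported here, and the 5 genes most like the receptor gene with the smallest p are named. One listed subtype marker, Tafa4, was not found in the table. Alternatives were DESeq2 1.42.0, RLE size factors, no filter, library scale from pan-neuronal genes, a replicate block, only the 8 libraries compared, and leaving out each library; for levels, another length and total counts; for windows, repeat-family windows and another total.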

Additional observations from a re-analysis of the deposited data

Results flagged for a closer look

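Among the 10 receptor genes, Grik2 and Grin1 had a response to the crush that differed between 24 h and 72 h by a test of the difference itself, an interaction contrast in edgeR. For Grik2 the response at 72 h minus that at 24 h was 0.644 on the log2 scale (edgeR adjusted p = 0.00353), and in every one of 21 alternatives it stayed called, between 0.53 and 0.68. The larger part of it lay in the naive libraries, where Grik2 at 72 h minus 24 h was −0.435. For Grin1 the difference was −0.51 (adjusted p = 0.0087), and it stayed called in all 21 alternatives, between −0.62 and −0.45. The times were taken from different mice. None of the 40 combinations of gene and group held a library that stood far from the other 3 by Dixon's test, which flags about 1 in 20 groups by chance.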

How the results depend on the processing

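No called result changed sign. The falls of Gria2 and Grik1 at both times, of Grm7 at 24 h and of Gria4 and Grin1 at 72 h, and the rise of Grik2 at 72 h, were called in all 22 alternatives. The number of the 10 genes called lower at 24 h was 5, and 3 with libraries scaled by the pan-neuronal genes, a scale that moved the median of all genes by −0.12 at 72 h, −0.11 in the difference of responses and 0.11 between the naive groups. For the difference of responses, 1 gene was called lower, and 2 without a filter on low counts (Grik1 added) or with the replicate block (Gria4 added). Between the naive groups, 0 were called higher and 1 lower; these counts were 1 and 2 with DESeq2, without a filter, and with only the 8 libraries compared, and 2 and 0 with the pan-neuronal scale. Of the pathway list genes, 9 were called lower at 24 h, and 5 with only the 8 libraries compared, and 6 had a higher response at 72 h, and 2 with the pan-neuronal scale. With windows of a repeat family only, the log2 ratio was 0.83 for Gria3 at 72 h, 0.22 for Grm7 at 24 h and −0.57 for Grm7 at 72 h, against −0.24, −0.47 and −0.30 with all windows, so that the first 2 changed sign; for Gria1, such windows had under 10 counts in a group and gave no value. The cause was not tested in any of these.

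Leaving out each library in turn, the 10 genes called lower numbered 4 to 6 at 24 h and 4 to 7 at 72 h (4 without naive 72 h replicate 2), called higher 0 and 1 throughout; in the difference of responses 1 was higher and 1 to 2 lower, and between the naive groups 0 to 1 higher and 0 to 2 lower. The pathway lists gave 12 to 14 higher and 5 to 9 lower at 24 h, 10 to 14 and 13 to 15 at 72 h, and 4 to 6 and 6 to 9 in the difference. In the level order, 8 to 10 of the 10 genes kept their rank. The window ratios ranged from −0.47 to −0.08 and −0.40 to −0.21 for Gria1, 0.20 to 0.61 and −0.42 to −0.08 for Gria3, and −0.61 to −0.31 and −0.36 to −0.22 for Grm7 (24 h and 72 h). With the longest transcript as length, the shares of Gria2 were 17.9, 14.6, 15.3 and 13.5% in naive and injured ganglia at 24 h and then 72 h, in the same order as with all exons.

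The labels number the mice but do not say that equal numbers mark 1 mouse. Same-numbered injured and naive libraries deviated from their group means with correlations of 0.05 to 0.10 over 8 pairs, of which 1 exceeded 0.1, and 7 of 8 injured libraries correlated best with their own number. With the replicate block, the difference of responses for Gria4 became called (−0.23, edgeR adjusted p = 0.0493), and no other call of the 10 genes changed. The intervals of Grik5 include both no change and a fall of 0.44; whether depth or the spread between libraries sets their width was not tested.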
